A study of Mus musculus with 14 samples.

Results

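The kinesin superfamily genes described here are the 39 protein-coding genes of the mouse GENCODE M21 annotation whose symbol is Kif with a number and an optional letter. They are 39 of 53239 gene symbols and hold 230 transcript rows of the deposited tables, which were summed to 1 value per gene. By symbol alone the rule also takes Kif1bp, a binding protein of KIF1 motors that is itself no motor, and leaves out the minus-end kinesins of the Kifc series and Cenpe. Input, which is total RNA of the testis lysate, and IP, which is RNA pulled down with HA-tagged ribosomes, were sequenced from 4 mutant (MUT) and 3 wild-type (WT) C57BL/6 mice at 21 dpp (days post partum). MUT mice were homozygous for an Adad2 mutant allele (Adad2M/M) and WT mice carried Adad2+/+. All mice, WT included, were heterozygous for Rpl22-HA (RiboTag) and carried Stra8-iCre, so that only cells with Stra8-driven Cre activity, the differentiating germ cells and their descendants, tag their ribosomes. The animals are named by their labels as MUT 12, 69, 93 and 94 and WT 121, 140 and 17, and values per library are given in that order.

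Kinesins use ATP to walk along microtubules or to take their ends apart. Some members work on the spindle, where they push poles apart, move chromosomes and finish cytokinesis, while others carry vesicles, organelles and complexes through the cytoplasm. A further set acts in cilia and flagella, and in spermatids kinesins serve the sperm tail and, for Kif17, the movement of a transcriptional coactivator. The members were accordingly read in 3 roles: 13 spindle kinesins, 18 transport kinesins and 7 kinesins of spermatids or cilia, with Kif1bp kept apart.

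Libraries held 22832564 to 30105859 counts in input and 24483783 to 30241725 in IP. Adad2 itself had 5.31, 5.04, 10.9 and 11.3 CPM in MUT input, against 25.001, 27.3 and 30.1 in WT input. In IP it had 10.6, 11.3, 8.90 and 6.33 CPM in MUT, against 100.2, 109 and 99.2 in WT, so that it was lower in every MUT library. CPM are counts scaled to library size, with TMM factors over all 14 libraries. The inputs of MUT 12 and 69 stood apart, with 16024 and 15438 annotated genes above 0, against 21334 and 27002 in MUT 93 and 94 and 25319 to 27791 in WT. In IP the count was 12744 to 15024 in MUT and 19655 to 21880 in WT. Of 6590 genes with a mean of at least 20 CPM in WT IP, 85 were listed at 0 in the IP of MUT 12, and Kif2c and Kif20b were among them. Sums of 12 Sertoli cell markers were 1044 to 1472 CPM in MUT input and 885 to 1009 CPM in WT input, and sums of 10 early meiotic markers were 1319 to 1786 CPM in MUT input and 1649 to 1699 CPM in WT input, so that markers of the testis soma and of meiotic germ cells were present in every input.

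In all, 33 of the 39 members averaged at least 5 CPM over the 14 libraries, among them all 13 spindle kinesins, all 7 kinesins of spermatids or cilia and 12 of 18 transport kinesins. Kif12 and Kif28 were listed at 0 in every library. The other low members, Kif26b, Kif3c, Kif1a and Kif21a, reached at most 6.43 CPM in any library, Kif26b in the IP of MUT 93. Compared per length in WT input, the most abundant member was Kif9, a motor of the sperm flagellum, at 74.3 ± 10.1 TPM (SD, n = 3). Kif2a, a microtubule depolymerase, had 54.1 ± 13.4 TPM, and the kinesin-2 subunits Kif3b and Kif3a, which drive intraflagellar transport, had 42.0 ± 4.54 and 39.4 ± 7.10 TPM. The order of Kif3b and Kif3a did not exceed their spread. Next stood Kif27, a relative of Kif7 linked to motile cilia, at 33.5 ± 2.31 TPM, and Kif5b, the widespread kinesin-1 heavy chain, at 30.6 ± 3.94 TPM. Kif17 was 25th of 39 at 5.33 ± 1.5003 TPM, and Kif7, the ciliary-tip regulator of Hedgehog signalling, had 0.660 ± 0.322 TPM.

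**Figure D1:**
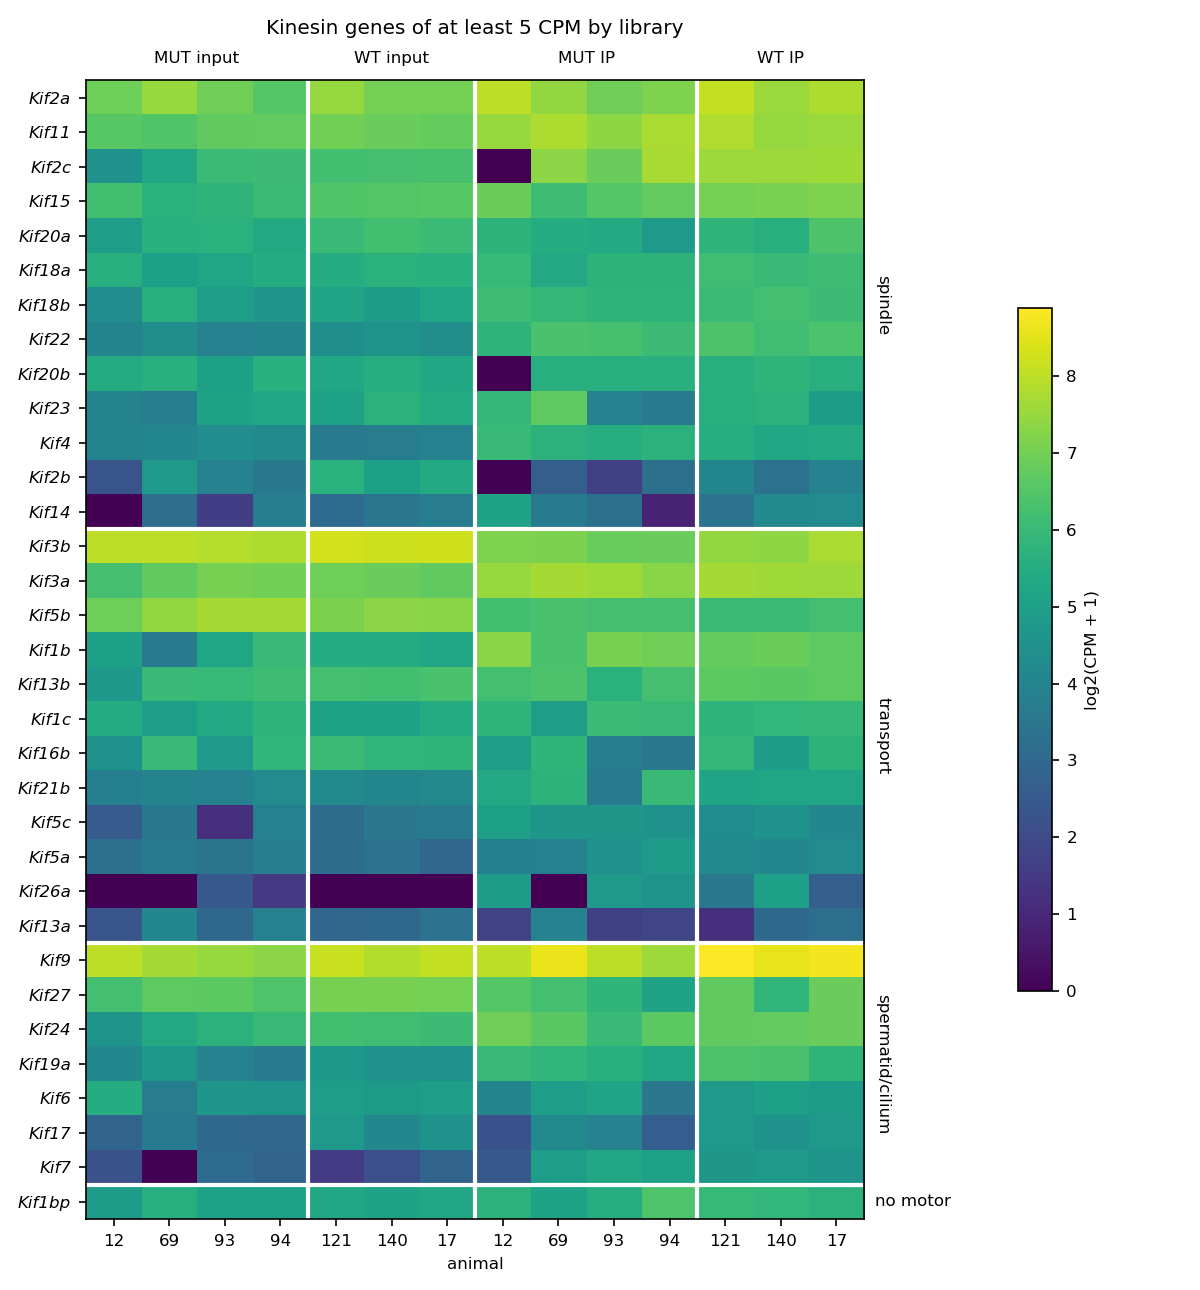
Level of each kinesin gene of at least 5 CPM in each library, as log2(CPM + 1) on a colour scale, with genes grouped by role and libraries by genotype and fraction. Kif9, Kif3b and Kif2a are bright throughout, Kif2c, Kif20b and Kif2b are at 0 in the IP of MUT 12, and Kif26a is at 0 in all 3 WT inputs but not in WT IP.

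The first comparison asked whether total RNA of kinesin genes differed between MUT and WT testes. Among members of at least 5 CPM, Kif2b, a spindle kinesin, and Kif17, a kinesin of spermatids, stood lowest, at 0.339 and 0.367 of WT. Most other spindle and ciliary kinesins lay below WT, and the chromokinesin Kif4 lay above it. No member passed the edgeR quasi-likelihood test at an adjusted p under 0.05, where 0.00547% of all 36572 features tested were called higher and 0.00273% lower. Before adjustment, p was under 0.05 for 0 higher and 6 lower members of 34 tested, against 1.60% of all features higher and 4.76% lower. The 6 were Kif15, Kif17, Kif20a, Kif27, Kif2b and Kif3b. DESeq2 with its own filter also called 0 members, where it called 139 of 67091 features higher and 623 lower. On the features that passed the filter of edgeR it called 1 member lower, Kif17, against 2.16% of all features lower and 0.962% higher. In 10 of 34 members (29.4%) every MUT input lay below every WT input, against 11.3% of all features and 13.8% of gene symbols of at least 5 CPM. In 1 member, Kif4, every MUT input lay above every WT input, against 2.47% of all features and 5.08% of those gene symbols. Without MUT 12 and 69 these counts were 17 below and 5 above, against 26.2% of those gene symbols below and 28.0% above. The median log2 fold change was -0.23 over the members and -0.18 over all features, and at 5 CPM or more it was -0.27 over members and -0.06 over gene symbols. In all, 27 of 34 members lay below 0.

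Among kinesins of spermatids and cilia, Kif17 (ENSMUSG00000028758.12, chr4:138250435-138301967, plus strand) stood lowest relative to WT. In male germ cells of mice, Kif17 is known as the motor that moves ACT (Fhl5), a coactivator of the transcription factor CREM. It had 6.34, 11.5, 7.08 and 6.60 CPM in MUT input, against 26.1, 16.6 and 22.5 CPM in WT input. All 4 MUT animals lay below all WT animals, and MUT 69 was the highest of the MUT animals. The log2 fold change was -1.45 (SE 0.36, adjusted p = 0.347) in edgeR, which is 0.367 of WT, and DESeq2 on the same features gave an adjusted p = 0.0135. Kif27 had 73.6, 102, 98.1 and 85.9 CPM in MUT input, against 133, 132 and 129.9 CPM in WT input, a log2 fold change of -0.54 (SE 0.13, adjusted p = 0.347). The WT animals were nearly equal, and all MUT animals were lower. Kif24, a centriolar kinesin that restrains cilium formation, had 23.4, 40.2, 51.3 and 62.7 CPM in MUT input, against 71.7, 70.5 and 67.2 CPM in WT input. The lowest Kif24 values were in MUT 12 and 69, and the log2 fold change was -0.65 (SE 0.28) over all animals but -0.30 (SE 0.11) without MUT 12 and 69.

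The remaining kinesins of this role overlapped between genotypes in input. Kif9 had 252, 204, 182 and 162 CPM in MUT input, against 277, 233 and 269 CPM in WT input. MUT 12 reached the WT range and the other MUT animals lay below it (log2 fold change -0.36, SE 0.17). Kif19a, which trims microtubules at the tips of motile cilia, averaged 17.1 ± 5.97 CPM in MUT and 23.5 ± 1.82 CPM in WT input (SD, n = 4 and n = 3). Kif6, a ciliary motor in mice, averaged 25.9 ± 13.4 CPM in MUT and 29.2 ± 1.33 CPM in WT input, and Kif7 averaged 4.33 ± 3.31 CPM in MUT and 3.92 ± 2.25 CPM in WT input. Of the 7 members of this role, 6 lay below 0, and their median was -0.44 on the log2 scale.

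Markers of the latest germ cells moved with these values. The 12 round spermatid markers summed to 153 to 182 CPM in MUT input and 287 to 346 CPM in WT input, and 10 of 10 tested lay below 0 with a median of -1.23, with Cst13 at 0 in all MUT inputs and Tssk6 at 0 in all WT inputs. The 10 late pachytene markers summed to 2082 to 2581 CPM in MUT input and 3108 to 3588 CPM in WT input, with a median of -0.63 and none at 0. The part of either in the kinesin values was not tested. In bulk testis RNA, fewer cells of a type and less RNA per cell cannot be told apart.

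Of 13 spindle kinesins, 11 lay below 0 in MUT input, and in 5 every MUT animal was below every WT animal, against 11.3% of all features and 13.8% of gene symbols of at least 5 CPM. Their median was -0.37 on the log2 scale. Kif2b (ENSMUSG00000046755.5, chr11:91575315-91577558, minus strand), a microtubule depolymerase of the kinesin-13 group, had 3.93, 26.1, 14.4 and 11.1 CPM in MUT input, against 49.7, 32.4 and 42.4 CPM in WT input. MUT 12 was lowest and MUT 69 came closest to WT, and the log2 fold change was -1.56 (SE 0.55, adjusted p = 0.530). Kif15 (ENSMUSG00000036768.6, chr9:122951046-123018733, plus strand), which can take over spindle pole separation from Kif11, had 71.5, 50.1, 54.3 and 65.5 CPM in MUT input, against 87.0, 88.9 and 93.3 CPM in WT input. Each MUT animal lay under the lowest WT animal, at a log2 fold change of -0.56 (SE 0.15, adjusted p = 0.347). Kif20a, which brings the chromosomal passenger complex to the central spindle, had 30.2, 48.5, 50.4 and 40.9 CPM in MUT input, against 64.2, 72.6 and 64.6 CPM in WT input (-0.65 on the log2 scale, SE 0.19).

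Kif2c, the centromeric depolymerase also called MCAK, had 22.7, 38.6, 64.6 and 66.2 CPM in MUT input, against 72.0, 75.8 and 78.3 CPM in WT input. Its 2 lowest values were again MUT 12 and 69, and its log2 fold change was -0.65 (SE 0.33) with them and -0.21 (SE 0.09) without them. Kif11, the motor that drives spindle poles apart, had 95.0, 87.2, 104 and 106 CPM in MUT input, against 125, 114 and 109 CPM in WT input, a small gap of -0.23 (SE 0.10) on the log2 scale. Kif4 (ENSMUSG00000034311.3, chrX:100625737-100727214, plus strand), an X-linked chromokinesin, lay above 0, as did Kif20b at 0.09 on the log2 scale. Kif4 had 14.8, 16.1, 19.6 and 18.2 CPM in MUT input, against 11.4, 12.4 and 13.9 CPM in WT input, so that all MUT animals were above all WT animals. Its log2 fold change was 0.46 (SE 0.27, adjusted p = 0.99997), and reads may be shared with the pseudogene Kif4-ps.

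The other spindle kinesins overlapped between genotypes. Kif2a averaged 129 ± 37.7 CPM in MUT and 145 ± 27.3 CPM in WT input, and Kif18a, which damps chromosome movement at metaphase, averaged 40.1 ± 7.35 CPM in MUT and 47.5 ± 2.52 CPM in WT input. Kif18b and Kif20b, which act on astral microtubules and in cytokinesis, averaged 30.1 ± 11.8 and 42.8 ± 7.76 CPM in MUT input, against 33.4 ± 4.32 and 40.7 ± 4.15 CPM in WT input. Kif22, a chromokinesin with a pseudogene of its own (Kif22-ps), averaged 16.2 ± 2.70 CPM in MUT and 21.1 ± 1.73 CPM in WT input. Kif23, the motor of centralspindlin, had 14.8, 12.9, 33.6 and 38.8 CPM in MUT input, against 33.2, 50.6 and 42.7 CPM in WT input, and its low values were those of MUT 12 and 69. Kif14, a cytokinesis motor, averaged 5.77 ± 5.87 CPM in MUT and 9.93 ± 2.31 CPM in WT input, with MUT 12 listed at 0.

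Transport kinesins had the median nearest to 0, at -0.15 on the log2 scale over 13 members tested, of which 9 lay below 0. Kif3b (ENSMUSG00000027475.9, chr2:153291413-153333390, plus strand) had 254, 257, 234 and 217 CPM in MUT input, against 311, 295 and 298 CPM in WT input. No MUT animal reached the WT range, at a log2 fold change of -0.31 (SE 0.10, adjusted p = 0.489). Its partner Kif3a had 76.2, 104, 131 and 126 CPM in MUT input, against 121, 115 and 103 CPM in WT input, and these overlapped (-0.04 on the log2 scale, SE 0.18). Kif13b, a motor for the polarity protein DLG1, had 25.9, 63.2, 61.3 and 68.7 CPM in MUT input, against 75.9, 72.0 and 78.6 CPM in WT input. MUT 12 was far below the rest, and the log2 fold change was -0.46 (SE 0.30) with it and -0.23 (SE 0.10) without it. Kif5b had 120.4, 172, 204 and 207 CPM in MUT input, against 138, 160.3 and 158 CPM in WT input, with MUT 12 below and the other MUT animals above every WT animal (0.22, SE 0.18).

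Of the other transport kinesins, the kinesin-3 motors Kif1b and Kif1c averaged 36.1 ± 21.1 and 42.1 ± 9.78 CPM in MUT input, against 41.4 ± 4.20 and 37.3 ± 5.28 CPM in WT input. The endosomal motors Kif16b and Kif13a averaged 41.7 ± 20.6 and 10.2 ± 5.74 CPM in MUT input, against 58.996 ± 5.02 and 7.66 ± 1.43 CPM in WT input. The kinesin-1 chains Kif5a and Kif5c, best known from neurons, averaged 10.8 ± 1.92 and 7.87 ± 5.78 CPM in MUT input, against 7.93 ± 1.43 and 10.1 ± 2.12 CPM in WT input. None of these 6 separated the genotypes. Kif21b averaged 15.4 ± 2.35 CPM in MUT and 17.1 ± 1.03 CPM in WT input, and Kif1bp averaged 35.2 ± 7.56 CPM in MUT and 36.8 ± 2.62 CPM in WT input. Kif26a, a kinesin without motor activity, had 0, 0, 4.48 and 1.75 CPM in MUT input and was at 0 in all WT inputs.

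**Figure D2:**
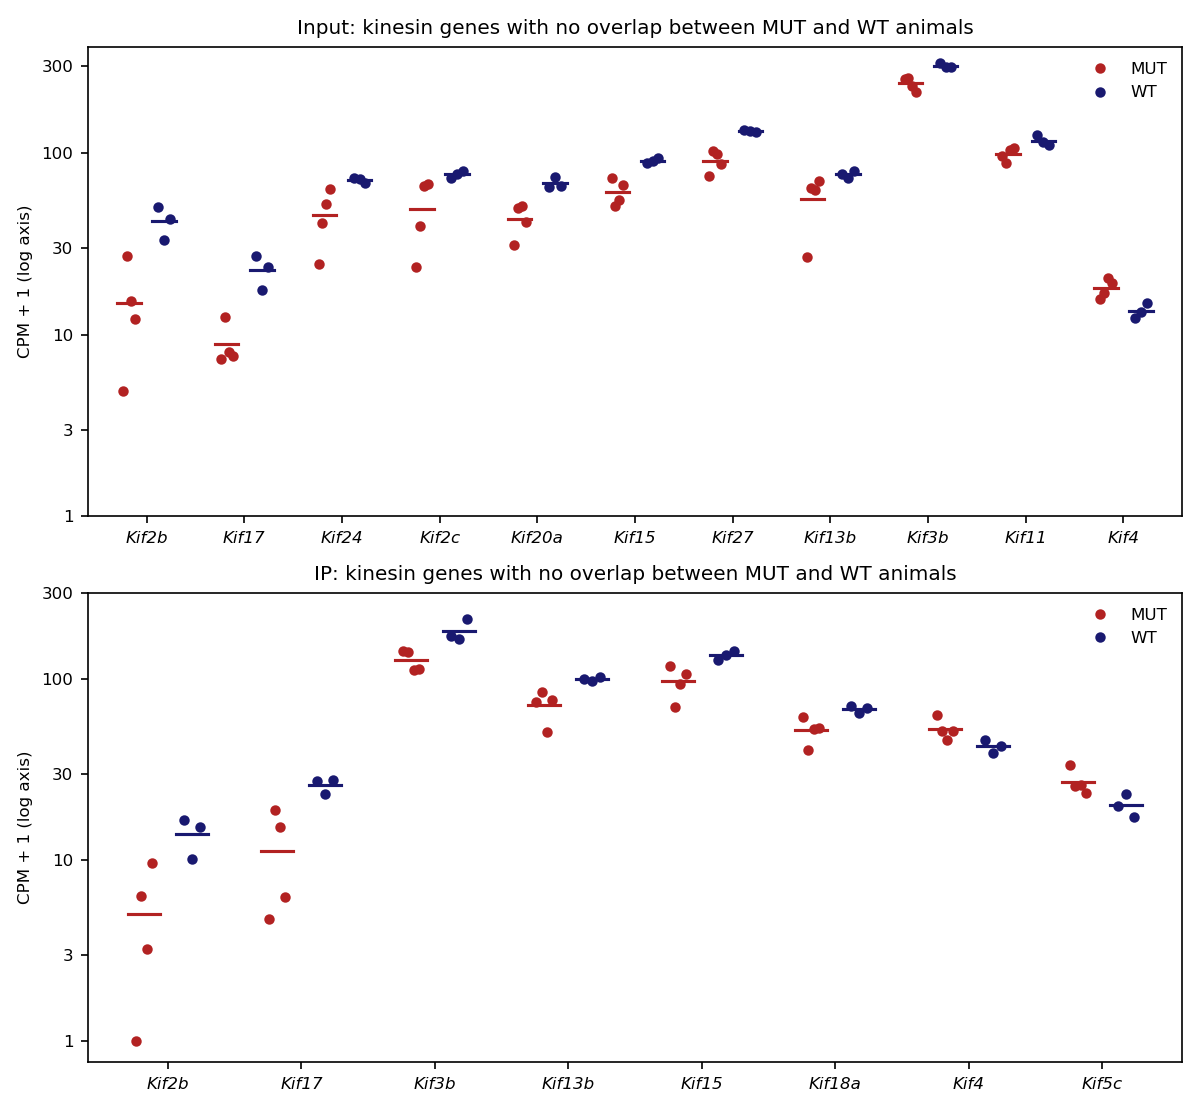
CPM + 1 on a log axis for each kinesin gene whose MUT and WT animals do not overlap, in input (upper panel) and IP (lower panel), with 1 point per animal and a bar at the mean. MUT points lie below WT points for 10 genes in input and 6 in IP, and above them for Kif4 in both and for Kif5c in IP.

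The promoters of members that did not overlap in both input and IP are shown to set their sequence beside these values. They span 250 bases before to 50 bases after the RefSeq start site in build GRCm38.p6, and a window was found for 31 of the 39 members, Kif13b not among them. Capitals mark matches on either strand to the cyclic AMP response element TGACGTCA, which CREM binds, the CCAAT box (CCAAT), the cell cycle homology region (TTTGAA) and a part of the X-box of ciliary genes (GTTGCC). None of the capitals below overlap each other. The windows are chr4:138262001-138262300 (plus strand) for Kif17, chr11:91577506-91577805 (minus strand) for Kif2b and chr9:122950831-122951130 (plus strand) for Kif15. Kif3b is shown from chr2:153291166-153291465 (plus strand) and Kif4 from chrX:100625815-100626114 (plus strand).
Kif17: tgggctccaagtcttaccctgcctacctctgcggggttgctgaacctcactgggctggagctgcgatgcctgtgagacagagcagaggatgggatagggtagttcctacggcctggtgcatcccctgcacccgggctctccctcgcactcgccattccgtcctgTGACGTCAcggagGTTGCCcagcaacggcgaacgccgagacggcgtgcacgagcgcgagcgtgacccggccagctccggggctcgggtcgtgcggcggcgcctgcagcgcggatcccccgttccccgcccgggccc
Kif2b: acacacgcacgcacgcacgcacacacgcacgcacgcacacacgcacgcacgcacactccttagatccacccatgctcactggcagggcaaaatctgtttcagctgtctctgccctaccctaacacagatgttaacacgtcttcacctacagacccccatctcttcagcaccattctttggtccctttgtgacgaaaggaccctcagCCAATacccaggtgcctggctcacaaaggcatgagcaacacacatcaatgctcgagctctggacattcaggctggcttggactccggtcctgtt
Kif15: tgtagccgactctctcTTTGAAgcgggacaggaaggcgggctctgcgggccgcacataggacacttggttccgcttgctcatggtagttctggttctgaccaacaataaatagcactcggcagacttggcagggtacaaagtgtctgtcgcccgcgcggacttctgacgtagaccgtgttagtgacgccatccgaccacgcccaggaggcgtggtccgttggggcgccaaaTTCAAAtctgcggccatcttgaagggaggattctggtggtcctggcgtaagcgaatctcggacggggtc
Kif3b: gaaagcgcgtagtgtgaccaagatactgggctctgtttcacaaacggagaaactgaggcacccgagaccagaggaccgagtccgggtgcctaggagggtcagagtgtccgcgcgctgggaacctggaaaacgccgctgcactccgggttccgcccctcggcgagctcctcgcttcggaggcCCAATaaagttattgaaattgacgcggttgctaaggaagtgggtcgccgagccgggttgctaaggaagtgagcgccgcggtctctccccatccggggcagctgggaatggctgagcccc
Kif4: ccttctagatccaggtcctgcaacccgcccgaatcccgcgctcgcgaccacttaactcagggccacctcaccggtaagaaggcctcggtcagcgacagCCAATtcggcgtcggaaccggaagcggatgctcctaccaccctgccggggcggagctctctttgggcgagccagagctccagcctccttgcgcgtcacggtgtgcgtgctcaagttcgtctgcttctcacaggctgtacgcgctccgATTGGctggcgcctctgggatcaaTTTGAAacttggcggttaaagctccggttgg
The Kif17 window holds TGACGTCA with its first base 86 bases before the start site and GTTGCC 73 bases before it. The Kif15 window holds TTTGAA once on each strand, 19 bases before the start site at the nearer match. Kif2b and Kif3b hold CCAAT alone, 44 and 69 bases before their start sites. Kif4 holds CCAAT in both orientations and TTTGAA 20 bases into the RefSeq transcript. The Kif4 window lies wholly downstream of the start of Kif4-201 (100625737), the isoform with 97.5% of Kif4 counts in WT input. TGACGTCA occurs in 1.79% of all 32851 promoter windows of this length and in 3 members, Kif17, Kif18a and Kif5c. TTTGAA occurs in 17.9% of windows and in 12 members, CCAAT in 37.4% and 14 members, and GTTGCC in 12.5% and 10 members. These are matches of letters, not sites shown to be bound.

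The second comparison asked whether RNA on tagged germ cell ribosomes differed by genotype. Kif2b and Kif17 stood at 0.315 and 0.416 of WT in IP, Kif3b at 0.703 and Kif15 at 0.725, while Kif4 and Kif5c lay above WT, at 1.28 and 1.39. No member of 35 tested passed the edgeR test, where 0.00382% of 26186 features were called higher and 0.00382% lower. Both ways of running DESeq2 called 0 members too. With its own filter DESeq2 called 533 of 52099 features higher and 2139 lower. On the features of edgeR it called 1.63% of all features higher and 7.94% lower. Before adjustment, p was under 0.05 for 0 higher and 4 lower members (Kif13b, Kif15, Kif3b and Kif9), against 1.34% of all features higher and 10.3% lower, so that the count was near the background. MUT animals lay below every WT animal for 6 members (17.1%), against 15.1% of all features and 13.3% of gene symbols of at least 5 CPM, which is close to the background. They lay above every WT animal for 2 members, Kif4 and Kif5c, against 1.72% of all features and 2.57% of those gene symbols. Without MUT 12 and 69 the counts were 16 below (45.7%) and 7 above, against 29.0% of those gene symbols below and 14.1% above. The median log2 fold change was -0.15 over members and -0.15 over all features. Round spermatid markers summed to 114 to 159 CPM in MUT IP and 223 to 227 CPM in WT IP, with Gapdhs and Cst13 at 0 in all MUT IPs, and late pachytene markers summed to 3413 to 3850 CPM in MUT IP and 4992 to 5650 CPM in WT IP. Their part in the values was not tested.

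Kif17 had 3.75, 17.9, 14.4 and 5.24 CPM in MUT IP, against 26.6, 22.2 and 26.8 CPM in WT IP. MUT 12 and 94 were far below WT and MUT 69 and 93 closer to it, and the log2 fold change was -1.27 (SE 0.59, adjusted p = 0.519) in edgeR. Kif2b had 0, 5.38, 2.22 and 8.62 CPM in MUT IP, against 15.7, 9.13 and 14.2 CPM in WT IP. Every MUT animal lay below WT, MUT 94 only just so, and MUT 12 was listed at 0 (-1.67, SE 1.51). Kif15 had 118, 69.2, 92.9 and 106 CPM in MUT IP, against 128, 136 and 142 CPM in WT IP, and its highest MUT animal, MUT 12, stayed below WT (-0.46, SE 0.18, adjusted p = 0.349). Kif3b had 142, 140.4, 112 and 113 CPM in MUT IP, against 172, 165 and 214 CPM in WT IP. All MUT animals were lower, and its log2 fold change of -0.51 (SE 0.15, adjusted p = 0.138) had the smallest p of the members in this comparison.

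Kif13b had 74.1, 83.8, 50.5 and 75.8 CPM in MUT IP, against 99.9, 97.4 and 102 CPM in WT IP, a log2 fold change of -0.47 (SE 0.19) with MUT 93 lowest. Kif18a had 61.1, 39.8, 51.9 and 52.5 CPM in MUT IP, against 70.3, 64.0 and 68.3 CPM in WT IP (-0.37, SE 0.18). Kif9 had 253, 392, 252 and 191 CPM in MUT IP, against 469.7, 370.0 and 420.3 CPM in WT IP. MUT 69 lay within the WT range and the other MUT animals below it (-0.60, SE 0.23, adjusted p = 0.333). On the other side, Kif4 had 62.6, 50.7, 45.4 and 50.7 CPM in MUT IP, against 45.3, 38.0 and 41.7 CPM in WT IP (0.36, SE 0.18, adjusted p = 0.617). Kif5c had 32.4, 24.7, 24.9 and 22.6 CPM in MUT IP, against 18.9, 22.4 and 16.3 CPM in WT IP (0.47, SE 0.27, adjusted p = 0.768). For both genes the lowest MUT animal was only just above the highest WT animal.

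By role, the median log2 fold change in IP was -0.46 for 7 kinesins of spermatids and cilia, -0.35 for 13 spindle kinesins and 0.16 for 14 transport kinesins. Kif2c had 0, 161, 115 and 208 CPM in MUT IP, against 190.1, 191 and 195 CPM in WT IP, and Kif20b had 0, 47.6, 47.4 and 49.0 CPM in MUT IP, against 46.5, 55.0 and 47.8 CPM in WT IP. The log2 fold changes of -0.65 (SE 1.51) and -0.45 (SE 1.47) rest on the 0 in MUT 12, since without this animal they were -0.23 (SE 0.21) for Kif2c and -0.04 (SE 0.15) for Kif20b. Kif23 was uneven in MUT IP at 58.9, 100.2, 14.3 and 11.5 CPM, against 48.1, 51.7 and 29.3 CPM in WT IP. There MUT 12 and 69 were high and MUT 93 and 94 low, the reverse of their order in input.

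The third comparison asked which kinesin RNAs were enriched on tagged germ cell ribosomes relative to total testis RNA in WT, with each animal as a block. Most kinesin RNAs were higher in WT IP than in WT input, with the chromokinesins Kif22 and Kif4 and the ciliary kinesins Kif7 and Kif19a among the largest differences, and Kif2b and Kif5b were lower. Of 35 members tested, 22 were higher in IP (62.9%), against 13.0% of all features and 34.6% of gene symbols of at least 5 CPM. Lower in IP were 2 (5.71%), against 6.37% of all features and 12.1% of those gene symbols. The median log2 difference was 0.93 over the members and -0.60 over all 34864 features, and 0.40 over gene symbols of at least 5 CPM. Fitted values are scaled within the compared libraries and lay 0.31 above the log2 ratios of CPM in WT, a shift common to all genes, while in MUT they lay within 0.01 of them. Calls were made in all roles: 9 of 13 spindle kinesins, 8 of 14 transport kinesins, 4 of 7 kinesins of spermatids and cilia and Kif1bp were higher. The calls rest on all 3 animals, as without WT 121 or without WT 140 edgeR called 0 of all features in either direction. Without WT 17 it called 17 members higher, against 2666 of 37065 features.

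Among members of at least 5 CPM with counts in every WT input, Kif7 had the largest enrichment, at IP/input CPM ratios of 13.3, 7.33 and 3.70 in the WT animals and a log2 difference of 3.13 (SE 0.47, adjusted p = 0.0220). Its inputs were only 1.88, 3.54 and 6.33 CPM, so the ratio varied widely. Kif22 had ratios of 4.05, 3.08 and 4.07 (2.20, SE 0.15, adjusted p = 0.00641) and Kif4 of 3.98, 3.06 and 3.01 (2.04, SE 0.18, adjusted p = 0.00781), so both chromokinesins were at least 3-fold richer in every WT IP. Kif2c had ratios of 2.64, 2.52 and 2.48 (1.66, SE 0.08, adjusted p = 0.00634), with little spread. Kif19a had ratios of 3.25, 3.51 and 2.45 (1.91, SE 0.15, adjusted p = 0.00716) and Kif1b had 2.43, 2.75 and 2.75 (1.71, SE 0.08, adjusted p = 0.00634). All WT animals were above 1 for each of these genes. Kif26a, at 0 in all WT inputs, had 10.6, 31.5 and 5.43 CPM in WT IP. Their mean is at least 400-fold above a floor of 3 counts over the 3 inputs, if the listed 0 is taken as absence. In MUT 93 and 94, where Kif26a input was above 0, IP/input was only 6.00 and 13.1. Across alternatives its log2 difference in WT went down to 1.77.

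The other members called higher in WT IP had smaller differences. These were Kif5a (1.46 on the log2 scale), Kif21b (1.40), Kif18b (1.36), Kif5c (1.24), Kif3a (1.11), Kif11 (1.06), Kif9 (1.004), Kif2a (0.94) and Kif24 (0.94). They also included Kif1c (0.93), Kif1bp (0.93), Kif15 (0.90), Kif18a (0.82), Kif13b (0.72) and Kif20b (0.60). Kif5c was closest to the threshold (adjusted p = 0.0498).

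Kif2b and Kif5b were lower in WT IP. Kif2b had IP/input ratios of 0.316, 0.282 and 0.336 in WT (-1.38, SE 0.15, adjusted p = 0.0112) and Kif5b had 0.470, 0.404 and 0.472 (-0.85, SE 0.10, adjusted p = 0.0145), although on log2(TPM + 1) with limma Kif5b was at -0.09 and not called. No WT animal exceeded a ratio of 0.48 for either gene. Kif3b had ratios of 0.553, 0.560 and 0.720 (-0.41, SE 0.11, adjusted p = 0.0811), and Kif3a, whose protein joins that of Kif3b in 1 motor, had 1.70, 1.70 and 1.83 (1.11, SE 0.08, adjusted p = 0.00641). Kif17 was near even, at 1.02, 1.33 and 1.19 (0.54, SE 0.15, adjusted p = 0.0861). The remaining members of at least 5 CPM, Kif14, Kif23, Kif6, Kif20a, Kif16b, Kif27 and Kif13a, had log2 differences between -0.48 for Kif13a and 0.90 for Kif14 and did not pass.

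Marker genes moved with fraction as well. The 12 Sertoli markers summed to 218 to 358 CPM in WT IP, against 885 to 1009 CPM in WT input, with 8 of 11 tested called lower and Fshr at 0 in WT input. The 10 spermatogonial markers summed to 556 to 687 CPM in WT IP, against 117 to 142 CPM in WT input, with 8 of 10 called higher and none at 0. In MUT, Sertoli markers summed to 170 to 278 CPM in IP, with Fshr at 0, against 1044 to 1472 CPM in input, and spermatogonial markers summed to 617 to 978 CPM in IP, against 101 to 218 CPM in input. The part of cell type content in the kinesin differences was not tested.

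In MUT, 6 of 34 members were higher in IP (17.6%), against 6.35% of 22918 features and 12.1% of gene symbols of at least 5 CPM, and 2 were lower, against 3.56% of all features and 5.93% of those gene symbols. The higher members were Kif22, Kif1b, Kif19a, Kif4, Kif11 and Kif3a, which were all called in WT too. Kif22 had IP/input ratios of 3.57, 3.96, 5.41 and 4.42 in MUT (2.10, SE 0.25, adjusted p = 0.00590), and Kif1b had 4.89, 6.81, 3.52 and 1.94 (1.96, SE 0.29, adjusted p = 0.0111). Every MUT animal was above 1 for both, and MUT 12 and 69 were highest for Kif1b. Kif19a had ratios of 3.76, 2.23, 3.35 and 3.33 (1.64, SE 0.30, adjusted p = 0.0219), Kif4 of 4.24, 3.16, 2.31 and 2.79 (1.61, SE 0.28, adjusted p = 0.0189) and Kif11 of 1.92, 2.54, 1.59 and 2.04 (0.99, SE 0.14, adjusted p = 0.00974). Kif3a had 2.35, 1.93, 1.48 and 1.24 (0.76, SE 0.16, adjusted p = 0.0333).

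Lower in MUT IP were Kif5b, at ratios of 0.592, 0.461, 0.366 and 0.362 (-1.20, SE 0.15, adjusted p = 0.00619), and Kif3b, at 0.558, 0.546, 0.480 and 0.522 (-0.93, SE 0.11, adjusted p = 0.00518), although on log2(TPM + 1) with limma both lay above 0, at 0.25 for Kif5b and 0.02 for Kif3b, where the median of all features was 0.32 and not the -0.63 of edgeR. Both genes lay under the median of all features on either scale, Kif5b only slightly so with limma, and the gaps to the median were not tested. The number called in MUT depended on the tool. DESeq2 with its own filter called 0 members, where it called 559 of 57202 features higher and 4731 lower. DESeq2 on the features of edgeR called 11 members higher and 5 lower, against 13.9% and 29.9% of all features. Without MUT 12 and 69 together, edgeR called 0 members, where it called 6 of 31795 features higher and 6 lower.

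**Figure D3:**
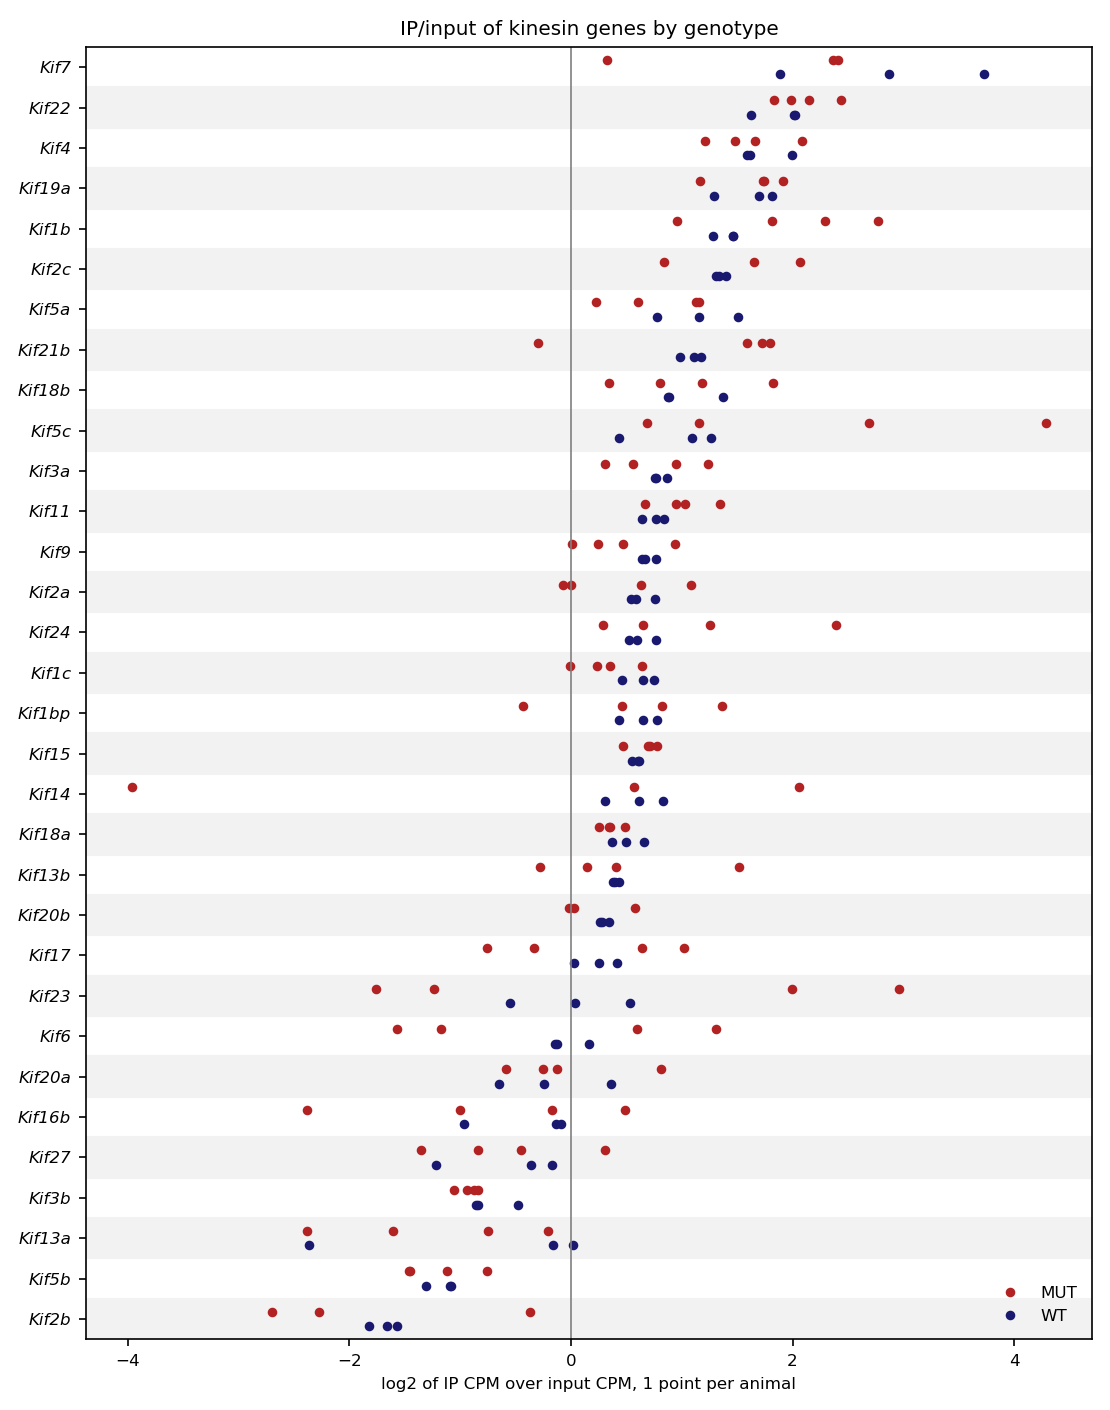
Log2 of IP over input CPM for each kinesin gene of at least 5 CPM, with 1 point per animal, MUT above WT in each row and genes ordered by the fitted WT difference. Most genes lie right of 0 in both genotypes, Kif5b, Kif3b and Kif2b lie left of it, and no gene separates MUT from WT; points with an IP or input of 0, and Kif26a, are not drawn.

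The last comparison asked whether IP/input, the study's measure of ribosome association, differed by genotype. Features at 0 in any input were left out, which kept 30 members. None was called (0.0% of 16070 features higher and 0.0% lower), none had an unadjusted p under 0.05 (0.473% of features higher and 6.75% lower), and DESeq2 called 0 members, against 0.218% of features called higher and 5.86% lower. No member separated MUT from WT animals in IP/input, against 1.16% of all features with MUT above and 8.56% with MUT below, and 1.51% and 5.96% of gene symbols of at least 5 CPM. The median interaction was -0.06 over the members, -0.12 over gene symbols of at least 5 CPM and -0.29 over all features.

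Kif17 had IP/input ratios of 0.592, 1.56, 2.03 and 0.793 in MUT, against 1.02, 1.33 and 1.19 in WT. MUT animals lay on both sides of WT, and the mean log2 ratio differed by -0.09 (exact permutation test over 35 splits, two-sided p = 0.914). Kif3b had ratios of 0.558, 0.546, 0.480 and 0.522 in MUT, against 0.553, 0.560 and 0.720 in WT, a difference of -0.21 (exact p = 0.0571). Kif11 had 1.92, 2.54, 1.59 and 2.04 in MUT, against 1.79, 1.56 and 1.70 in WT, a difference of 0.25 (exact p = 0.229), and Kif1b had 4.89, 6.81, 3.52 and 1.94 in MUT, against 2.43, 2.75 and 2.75 in WT, a difference of 0.55 (exact p = 0.257). Besides Kif17, these were the members above 0 in every library with the smallest interaction p, and none of these 4 tests passed 0.05, the smallest exact p these 7 animals allow being 0.0286. Kif17 was thus at 0.367 of WT in input and at 0.416 of WT in IP, and a difference in IP/input was not detectable with these animals.

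Transcript rows showed which isoforms carried these counts. The isoform with the largest share was the same in WT IP and WT input for 28 of 32 members, and differed for Kif13a, Kif16b, Kif17 and Kif9. Kif17-201 (15 exons, coding length 3114 bases, start at 138262232 on chromosome 4) is the isoform whose start lies in the promoter window printed above. It held 18.4% of Kif17 counts in WT IP, against 59.6% in WT input. Kif17-202 (14 exons, coding length 2268 bases), which starts 11797 bases upstream, held 49.7% in WT IP, against 40.1% in WT input. Kif17-204 (12 exons) had 8.48, 9.70 and 5.42 CPM in WT IP and 0 in all WT inputs.

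By genotype, Kif17-201 had 0, 2.66, 3.43 and 4.51 CPM in MUT input, against 13.96, 11.9 and 12.0 CPM in WT input, with no overlap. Kif17-202 had 6.35, 8.81, 3.65 and 2.09 CPM in MUT input, against 11.9, 4.71 and 10.4 CPM in WT input, with overlap. In IP, Kif17-202 had 3.40, 0, 9.84 and 0.116 CPM in MUT, against 13.9, 10.9 and 12.7 CPM in WT, and MUT 93 came closest to WT. Over all transcripts edgeR called 0 of 59683 in input and 0 of 42721 in IP, so no isoform passed. Before adjustment, p was under 0.05 for 0 higher and 8 lower of 96 member transcripts in input and for 1 higher and 4 lower of 86 in IP, against 0.871% and 3.40% of all transcripts in input and 1.36% and 10.2% in IP. RSEM estimates of isoforms that share most exons are uncertain.

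Kif9-201 and Kif9-202 have nearly equal coding lengths, 2430 and 2370 bases, and the same start. Kif9-201 had 51.6, 65.4, 52.4 and 43.9 CPM in MUT IP, against 203, 108 and 163 CPM in WT IP, and all MUT animals lay below WT (log2 fold change -1.67, SE 0.24, adjusted p = 0.106 in edgeR over all transcripts). Kif9-202 had 155, 299, 193 and 147 CPM in MUT IP, against 250.0, 250.4 and 239 CPM in WT IP, and overlapped (-0.41, SE 0.24). Kif1b has a short isoform known for moving mitochondria and a long one known for moving synaptic vesicle precursors. The longer Kif1b-202 (47 exons, coding length 5310 bases) had 89.0, 94.7 and 73.4 CPM in WT IP, against 24.5, 25.1 and 18.6 CPM in WT input, and the shorter Kif1b-201 (21 exons, 3450 bases) had 13.0, 18.02 and 23.3 CPM in WT IP, against 17.0, 16.1 and 15.8 CPM in WT input. The higher Kif1b level in WT IP thus came with higher Kif1b-202.

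**Figure D4:**
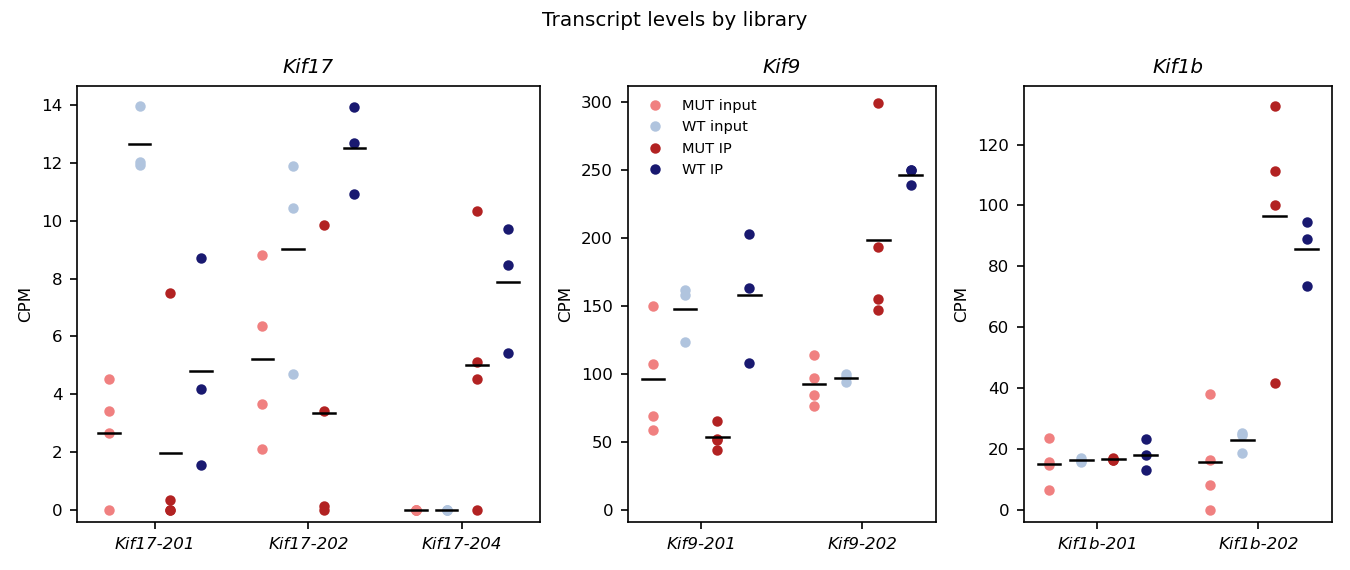
CPM of transcripts of Kif17, Kif9 and Kif1b in each library, with 1 point per library and a bar at the mean, in the order MUT input, WT input, MUT IP and WT IP. Kif17-204 is seen in IP alone, and Kif9-201 is lower in every MUT IP than in WT IP. Kif1b-202 is higher in IP, while Kif1b-201 differs less and in both directions.

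Of 23 partners of kinesins, which are light chains, adaptors, midzone factors, minus-end kinesins, Cenpe and the CREM pathway of Kif17, none was called between genotypes in input, IP or IP/input. Before adjustment, p was under 0.05 for 0 higher and 3 lower of 23 in input, against 1.60% of all features higher and 4.76% lower. In IP these were 1 higher and 2 lower of 22, against 1.34% and 10.3% of all features. In IP/input they were 0 higher and 1 lower of 20, against 0.473% and 6.75%. DESeq2 on the features of edgeR called 1 of 23 lower in input (2.16% of all features), 1 of 22 higher (1.63%) and 2 lower (7.94%) in IP and 0 in IP/input. In WT, 13 of 23 were higher in IP than in input, against 13.0% of all features and 34.6% of gene symbols of at least 5 CPM. None was lower, against 6.37% and 12.1%. In MUT, 3 of 23 (Kifc1, Klc2 and Prc1) were higher, against 6.35% and 12.1%, and 0 were lower, against 3.56% and 5.93%. Kifc1 is uncertain, as it is nearly identical to Kifc5b. Prc1, which bundles midzone microtubules and recruits Kif4, had 169.9, 144, 162 and 187 CPM in MUT input, against 291, 283 and 278 CPM in WT input, with a wide gap between genotypes (-0.77, SE 0.10, adjusted p = 0.217). In IP, Prc1 had 308, 238, 300.3 and 322 CPM in MUT, against 471, 415 and 469 CPM in WT (-0.61, SE 0.12, adjusted p = 0.114).

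Crem, the transcription factor served by the Kif17 cargo, had 50.9, 51.6, 70.0 and 55.4 CPM in MUT IP, against 112, 106 and 84.0 CPM in WT IP, with every MUT animal lower (-0.80, SE 0.17, adjusted p = 0.114). In input Crem overlapped (-0.41, SE 0.17). Fhl5, which encodes ACT, had 4.28, 0.704, 0.571 and 0.929 CPM in MUT input, against 4.47, 2.93 and 3.70 CPM in WT input, and was at 0 in all MUT IPs, against 0.332, 0.433 and 1.304 CPM in WT IP. Ect2, the cytokinesis factor that binds centralspindlin, had 64.9, 63.6, 70.9 and 67.0 CPM in MUT input, against 84.7, 72.7 and 88.6 CPM in WT input (-0.29, SE 0.12, adjusted p = 0.740). Klc4, a kinesin light chain, had 55.9, 47.6, 47.8 and 52.2 CPM in MUT IP, against 38.0, 42.0 and 30.7 CPM in WT IP, with MUT animals higher (0.49, SE 0.18, adjusted p = 0.308).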

How the data were processed

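Total RNA (input) and HA-immunoprecipitated RNA of 7 animals were sequenced as stranded, ribosomal RNA-depleted libraries. The authors estimated expected counts with RSEM 1.3.3 on GRCm38 with added testis transcripts, and deposited them without normalization. The deposited TPM come from the same run and were used for levels per length and for limma. Each of 182829 entries is 1 transcript. Ensembl transcripts were summed by GENCODE M21 symbol, assembled transcripts were kept singly and 92 spike-ins were left out, which gave 102531 features.

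Expected counts, rounded to whole numbers, entered edgeR 4.0.16 (TMM, filterByExpr, robust quasi-likelihood, Benjamini-Hochberg adjusted p under 0.05) over all features. IP against input and the interaction took the animal as a block, since each animal gave both libraries. After removal of group means, the libraries of 1 animal correlated by 0.04 to 0.08 in WT and 0.01 to 0.02 in MUT. CPM use TMM factors over all 14 libraries. Single ratios were compared by exact permutation. The fits were tested on simulated data. Alternatives were DESeq2 1.42.0, limma 3.58.1 on log2 TPM with 0.1 or 1 added, other scaling and filters, no block and left-out animals. Scripts ran on R 4.3.3 and Python 3.11.15.

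Named with values were members of at least 5 CPM over all libraries, those called or not overlapping between genotypes, and up to 6 partners with the smallest genotype p. Members and lists were chosen with earlier results of these data known. Replicates are separate animals, and with 4 against 3 only large differences can pass a test over all features.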

Additional observations from a re-analysis of the deposited data

Results flagged for a closer look

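Over 96 groups of 4 MUT values, 4 had an extreme sample whose gap to its nearest neighbour exceeded the critical share of the group's range in Dixon's test. Chance alone flags about 1 group in 20.

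Kif17 in MUT input was 11.5 CPM in MUT 69, above 6.34, 7.08 and 6.60 CPM in MUT 12, 93 and 94 and still below every WT input. Kif22 in MUT input was 20.1 CPM in MUT 69, above the other 3 MUT animals at 14.2 to 15.2 CPM and within the WT range. Kif13a in MUT IP was 14.2 CPM in MUT 69, against 2.22 to 2.59 CPM in the other MUT IPs. Kif20b in MUT IP was listed at 0 in MUT 12, against 47.4 to 49.0 CPM in the other MUT IPs.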

How the results depend on the processing

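Over 51 single-gene results and 702 values under alternatives, 604 kept direction and side of the threshold, 93 kept direction but were no longer called, 1 became called and 4 reversed. The genotype results among them were not called in the main fits. Apart from the 1 that became called, Kif17 in input, their values count as kept by staying uncalled. All 93 lost calls and all 4 reversals fell on IP against input, so the total overstates how well calls held. The reversals were those of limma on TPM in MUT IP against input, with 0.1 or 1 added: Kif3b at 0.0194 and 0.0193 and Kif5b at 0.255 and 0.247. None of the genotype differences without overlap in input or IP changed sign under any alternative run. These genes were picked for their lack of overlap in the same libraries, so a change of sign was hardly possible. The unchanged signs therefore give no added support. Kif17 in input had a log2 fold change between -1.70 and -1.22 across alternatives.

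Counts of called members changed as follows. In MUT against WT input, DESeq2 on the features of edgeR called 1 member lower (Kif17, adjusted p = 0.0135), against 2.16% of all features. This alternative was chosen after seeing the data. Across alternatives the adjusted p of Kif17 was 0.0135 to 0.962. In WT IP against input, the 22 higher members were 0 to 17 with 1 animal left out, against 0 to 2666 of all features. The 2 lower members were 4 with DESeq2 on the features of edgeR (31.2% of all features). They were 1 with limma at either added value, against 2898 and 3267 of 34864 features at 0.1 and 1. With 1 animal left out they were 0 to 3, against 0 to 1088 of all features. In MUT, the 6 higher members were 0 with DESeq2 (559 of 57202 features) and 11 with DESeq2 on the features of edgeR (13.9% of all features). They were 14 and 18 with limma at 0.1 and 1, against 4846 and 5203 of 22918 features. With 1 animal left out they were 2 to 3, against 636 to 1004 of all features. Without MUT 12 and 69 they were 0, against 6 of 31795 features. The 2 lower members were 0 with DESeq2 (4731 of 57202 features) and 5 with DESeq2 on the features of edgeR (29.9% of all features). They were 0 with limma at 0.1 and 1, against 1196 and 1124 of 22918 features. Without MUT 12 and 69 they were also 0, against 6 of 31795 features. With no replicate block, edgeR called 22 members higher and 2 lower in WT, against 5681 and 4589 of 34864 features. In MUT it called 7 higher and 2 lower, against 1934 and 1787 of 22918 features. In the interaction it called 0 members, against 2 features higher and 385 lower of 16070. Pairing thus moved no member count by over 1.5 times.

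Without MUT 12 and 69, a choice made after seeing the data, MUT lay below WT for 17 of 34 members in input and 16 of 35 in IP, against 26.2% and 29.0% of gene symbols of at least 5 CPM, and above it for 5 and 7, against 28.0% and 14.1% of those gene symbols. Low counts limit Kif7, Kif14, Kif13a, Kif26a and the members under 5 CPM most.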
